A study of Mus musculus with 6 samples.

Results

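Voltage-gated sodium and calcium channels open when the membrane depolarizes: sodium channels carry the upstroke of the action potential, and calcium channels admit the calcium that releases transmitter, shapes dendritic responses and drives gene expression. Each channel has 1 large pore-forming subunit (alpha in sodium channels, alpha1 in calcium channels). In many of these channels auxiliary subunits bring the pore to the membrane and modulate it. In the striatum, most neurons are GABAergic medium spiny neurons (MSNs) of the D1 and D2 dopamine receptor types, which rest far below threshold, while the much rarer interneurons include fast-spiking and tonically active cells.

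The genes examined were all those of the deposited table whose symbols name a sodium channel alpha subunit (Scn1a to Scn11a), a sodium channel beta subunit (such as Scn2b), a calcium channel alpha1 subunit (Cacna1a to Cacna1s), an alpha2delta subunit (Cacna2d1 to Cacna2d4) or a calcium channel beta subunit (Cacnb1 to Cacnb4). This gave 32 of 24841 genes: 10 sodium channel alpha, 4 sodium channel beta, 10 alpha1, 4 alpha2delta and 4 calcium channel beta genes. The rule used symbols alone.

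The samples were single-nucleus RNA libraries (10x Genomics 3′ chemistry) of dissected, flash-frozen striatum of mice, 3 wild-type and 3 labelled Celsr3 heterozygous. Celsr3 codes for an adhesion receptor of the cadherin superfamily. The labels call the libraries biological replicates and give no strain, sex, age, litter, pooling or description of the allele, so p-values measure the spread between these libraries. The comparison asks how striatal gene expression differs between these genotypes.

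Of 48834 nuclei, 47984 were kept after likely doublets were removed, and the channel genes took no part in clustering or naming. The deposited values are whole numbers and were read, from their pattern, as depth-corrected UMI values. The depth before correction is unknown, and the 6 libraries had medians of 2456 to 3011 genes per nucleus. A class was named from its markers; each name therefore means nuclei like that type, and clusters that went unnamed held 9.44% to 23.86% of the nuclei of a library. They include cluster 3, with 4.51% to 11.92% of each library, in which 9 of 9 oligodendrocyte markers were raised. It stayed unnamed because Enpp6, a marker of committed oligodendrocyte precursors, was among its 10 leading genes and no oligodendrocyte marker was. Clusters 2 and 17, named as oligodendrocytes, had no marker of any class among theirs. Of 48559 distinct barcodes, 274 occurred in more than 1 library. Heterozygous replicate 1 stood apart in composition, with 27 OPC nuclei (oligodendrocyte precursors) against 123 to 291 in the other libraries and 1501 glutamatergic nuclei against 196 to 917; glutamatergic neurons are not a cell type of the striatum itself.

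The promoters of the genes differ in base composition, shown here for a pair of alpha2delta genes and for Scn9a, whose levels by class are described below. RefSeq promoter sequences on GRCm38.p6 were available for 24 of the 32 genes. Shown 5′ to 3′ on the gene's own strand are the 250 bases before the start site of Cacna2d1 (chr5:15934441-15934690, plus strand), Cacna2d3 (chr14:29721865-29722114, minus strand) and Scn9a (chr2:66634963-66635212, minus strand). None of the 3 windows overlaps an annotated exon. Capitals mark GC-box letters, GGGCGG or its reverse complement CCGCCC, with adjoining matches run together.
Cacna2d1: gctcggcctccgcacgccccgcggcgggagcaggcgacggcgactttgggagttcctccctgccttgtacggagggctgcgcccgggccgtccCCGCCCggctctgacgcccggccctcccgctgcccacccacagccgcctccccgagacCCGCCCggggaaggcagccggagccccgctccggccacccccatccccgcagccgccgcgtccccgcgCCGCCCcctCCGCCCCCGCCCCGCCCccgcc
Cacna2d3: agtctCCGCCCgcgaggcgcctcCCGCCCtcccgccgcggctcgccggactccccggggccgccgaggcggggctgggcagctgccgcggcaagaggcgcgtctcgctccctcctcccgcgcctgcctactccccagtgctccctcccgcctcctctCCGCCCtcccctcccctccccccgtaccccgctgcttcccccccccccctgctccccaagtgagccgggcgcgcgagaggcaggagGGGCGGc
Scn9a: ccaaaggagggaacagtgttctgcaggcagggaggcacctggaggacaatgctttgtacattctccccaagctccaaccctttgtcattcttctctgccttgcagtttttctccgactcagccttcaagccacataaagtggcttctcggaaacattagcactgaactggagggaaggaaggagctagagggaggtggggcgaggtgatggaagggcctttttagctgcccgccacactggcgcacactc
The Cacna2d1 window holds 6 matches and the Cacna2d3 window 4, and the Scn9a window has none. The G and C content is 82.4%, 80% and 54.4%, with 36, 30 and 5 CpG dinucleotides, against medians of 52.4% and 6 over all windows of this length. A GC-box match occurs in 32.74% of all windows and in 13 of the 34 windows of the 24 channel genes, some of which have several start sites (38.24%). A match is a description of letters, not of a bound site.

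Levels are given as the mean value per nucleus in each library, averaged over 6 libraries, and are compared only between classes for the same gene. Of the 32 genes, 30 reached a mean of 0.02 in at least 1 of the 16 classes with 20 or more nuclei in every library; Scn4a and Scn11a, channels best known from muscle and sensory neurons, did not. Of these 30 genes, 7 had their highest mean in D2 MSNs, 6 in cholinergic interneurons, 5 in other GABAergic interneurons (3 clusters with more raised markers of GABAergic interneurons in general than of any other class), 4 in glutamatergic neurons, 2 each in eccentric MSNs (an MSN type besides D1 and D2 marked by Otof and Tshz1), D1 MSNs and Pvalb/Pthlh interneurons, and 1 each in mural cells and oligodendrocytes. For 6 genes every library of the highest class lay above every library of the second class. These were Cacnb2, Cacna1e, Cacna2d1, Cacna2d2, Cacna2d4 and Cacnb3; libraries of a class further down the order still overlapped the first for Cacna1e (glutamatergic neurons) and Cacna2d1 (other GABAergic interneurons). For the other genes the first and second classes could not be separated by their spread.

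**Figure D1:**
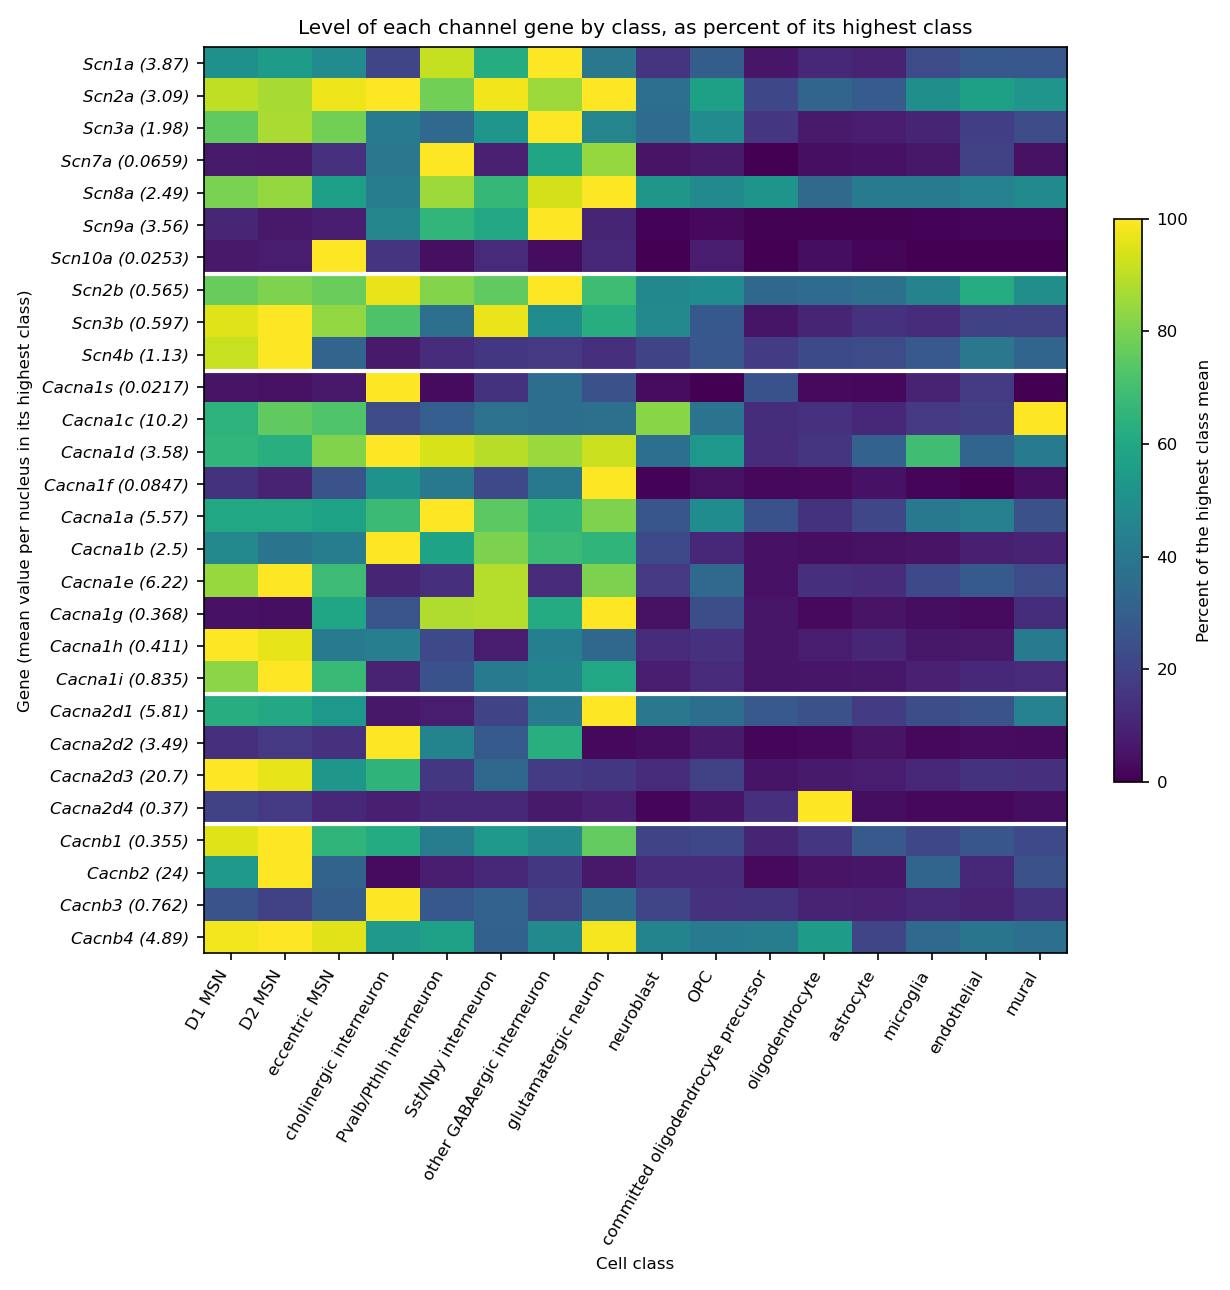
Level of 28 of the channel genes that reached a mean of 0.02 (vertical axis, with the mean value per nucleus in its highest class) in 16 cell classes (horizontal axis), as percent of the gene's highest class mean. Colour runs from 0 to 100%. Cacna2d4 stands out in oligodendrocytes, Scn4b and Cacna2d3 in D1 and D2 MSNs, Cacna2d2 and Cacnb3 in cholinergic interneurons.

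Among the sodium channel pores of the brain, Scn1a, the main channel of fast-spiking interneurons, was highest in other GABAergic interneurons (3.87 ± 0.430, SD, n = 6; 3.40 lowest, 3.74 median, 4.50 highest library) and Pvalb/Pthlh interneurons (3.52 ± 0.120). Sst/Npy interneurons followed at 2.39 ± 0.269 and cholinergic interneurons stood at 0.810. The libraries of the first pair of classes overlapped each other and those of no other class. Scn2a, which codes for the channel of the proximal axon initial segment in many projection neurons, was close in level in several neuron classes. In the class test below, Scn2a was called lower in Pvalb/Pthlh than in Sst/Npy interneurons (log2 -0.31, adjusted p = 0.0128, limma). Its mean was 3.09 in both cholinergic and glutamatergic cells, 3.02 in Sst/Npy interneurons and in eccentric MSNs, 2.79 in D1 and 2.68 in D2 MSNs. Scn8a, whose channel lies at the distal initial segment and the nodes of axons, was 2.49 ± 0.136 in glutamatergic neurons, 2.33 in other GABAergic and 2.12 in Pvalb/Pthlh interneurons. D1 and D2 MSNs followed at 2.00 and 2.10, and the libraries of the first 3 of these classes overlapped.

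Scn3a, an alpha subunit highest in the immature brain, averaged 1.98 ± 0.556 in other GABAergic interneurons, where heterozygous replicate 1 gave the lowest value, 0.890. It averaged 1.73 in D2 MSNs, and 7 classes, D2 MSNs among them, overlapped the first. Within the other GABAergic class the gene was uneven: cluster 26 stood at 3.93, cluster 24 at 1.24 and cluster 32 at 0.857. Heterozygous replicate 1 had 1% of its nuclei of this class in cluster 26 and 74% in cluster 32, against 10.1% to 29.7% in cluster 32 in the other libraries.

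Scn9a, best known from pain-sensing neurons, was high in all 4 interneuron classes. Library means in other GABAergic interneurons ran from 1.30 (median 3.78) to 4.81, in Pvalb/Pthlh interneurons from 1.43 (median 2.24) to 3.07, in Sst/Npy interneurons from 2.04 (median 2.12) to 2.28 and in cholinergic interneurons from 1.25 (median 1.56) to 2.26. The 4 ranges overlapped. D1 MSNs, the next class, had a mean of 0.380 ± 0.0943 and no library above 0.504, below every interneuron library. High Scn9a was not limited to these classes. Library means ran from 1.54 to 2.76 over 5 libraries in the unnamed cluster 19. They ran from 1.32 to 2.05 over 6 libraries in the unnamed cluster 6, so both clusters lay within the interneuron ranges. Cluster 32 of the other GABAergic class, which was led by Vip, was low at 0.664 where clusters 24 and 26 stood at 4.19 and 5.21. An antisense transcript of the table, Gm13629, overlaps Scn9a and followed it at 61.6% of its level in D1 MSNs, 74.7% in Pvalb/Pthlh and 67.5% in other GABAergic interneurons; whether the counting used strand is not given in the sources used here, so reads of the pair cannot be told apart.

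Scn7a, a sodium-sensing relative that is not opened by voltage, reached 0.0659 in Pvalb/Pthlh interneurons and 0.0556 in glutamatergic neurons. In ependymal nuclei, which were too few to test (154 in all), its pooled mean was 0.500. Scn10a, a channel of sensory neurons, reached 0.0253 in eccentric MSNs with libraries from 0 to 0.05.

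Of the sodium channel beta subunits, Scn4b had its highest class means in D2 and D1 MSNs. This subunit underlies resurgent current together with a pore subunit. Its mean was 1.13 ± 0.106 in D2 MSNs (1.01 lowest, 1.14 median, 1.27 highest) and 1.04 ± 0.115 in D1 MSNs (0.868, 1.05 and 1.17). No library of another class exceeded 0.707, and cholinergic interneurons were lowest of all 16 classes at 0.0804. The unnamed cluster 12, outside these classes, held 0.728 (0.510 to 1.05 over 6 libraries). Eccentric MSNs carried 0.369, and within D1 MSNs cluster 7 held 0.680 against 1.17 in cluster 0. Endothelial and mural nuclei stood next at 0.447 and 0.370, and the summed level of 10 MSN markers in them was 37.7% and 30.9% of that in D1 MSNs, against 8.16% in cholinergic interneurons; the part of stray MSN RNA in these levels was not tested.

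The other beta subunits had other patterns. Scn2b, covalently bound to the pore, ranged only 2.95-fold from its highest class, other GABAergic interneurons (0.565), to its lowest, committed oligodendrocyte precursors (0.192). Scn3b was 0.597 in D2 MSNs, 0.579 in Sst/Npy interneurons and 0.568 in D1 MSNs, without separation by library.

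Among the high-voltage-activated calcium channel pores, the L-type gene Cacna1c had its highest class mean in mural cells. In these, the contractile cells of vessel walls, library means ran from 7.90 (median 10.0) to 12.9. Neuroblasts followed at 8.41 ± 1.07, D2 MSNs at 7.75 ± 0.268, eccentric MSNs at 7.40 and D1 MSNs at 6.60 ± 0.364; the first 3 of these overlapped the mural range and D1 MSNs did not. In mural and neuroblast nuclei the MSN marker sum was 30.9% and 26.0% of that in D1 MSNs. The part of stray MSN RNA in these Cacna1c levels was not tested. The other brain L-type gene, Cacna1d, which opens at more negative voltages and sustains pacemaking, was highest in cholinergic interneurons (3.58 ± 0.373), the tonically active cells of the striatum. The libraries of 5 other neuron classes overlapped it, so no order among them can be read. By cluster, glutamatergic cluster 14 stood at 4.31 (3.97 to 4.70 over 6 libraries) and the cholinergic cluster at 3.62 (3.17 to 4). Cacna1f, the retinal L-type gene, reached 0.0847 ± 0.0243 in glutamatergic neurons and 0.0125 in D1 MSNs. Cacna1s, the skeletal muscle gene, reached 0.0217 in cholinergic interneurons, where libraries ran from 0 to 0.05, and its pooled mean in the 154 ependymal nuclei was 0.0649.

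Cacna1a, the P/Q-type pore of fast transmitter release, was highest in Pvalb/Pthlh interneurons (5.57 ± 0.494; 5.02 lowest, 5.52 median, 6.27 highest), followed by glutamatergic neurons (4.49 ± 0.394) with a range that just met theirs. It was lowest in oligodendrocytes at 0.813. Cacna1b, the N-type pore, was highest in cholinergic interneurons (2.50 ± 0.158; 2.28, 2.50 and 2.75). Sst/Npy interneurons (2.01 ± 0.238) overlapped them, and D1 and D2 MSNs had 1.18 and 0.965. Cacna1e, the R-type pore, had a different order: D2 MSNs 6.22 ± 0.248, Sst/Npy interneurons 5.52 ± 0.164, D1 MSNs 5.27 ± 0.351 and glutamatergic neurons 5.00 ± 0.768. Pvalb/Pthlh interneurons carried 0.845 and cholinergic interneurons 0.648. Within MSNs it varied by cluster, with 4.83 and 6.44 in D1 clusters 0 and 7 and 6.97 and 4.71 in D2 clusters 1 and 5.

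The low-voltage-activated, T-type pores divided the neurons differently. Cacna1g was 0.368 ± 0.0688 in glutamatergic neurons, 0.327 in Sst/Npy and 0.324 in Pvalb/Pthlh interneurons, 0.218 in eccentric MSNs, and only 0.0187 in D1 and 0.0147 in D2 MSNs. Cacna1h had its highest means in D1 (0.411 ± 0.0314) and D2 MSNs (0.396 ± 0.0214), which overlapped each other and no other class. Cacna1i was highest in D2 MSNs (0.835 ± 0.0658), then in D1 (0.689 ± 0.0617) and eccentric MSNs (0.562 ± 0.174). Cluster 26 of the other GABAergic class stood at 0.814 (0.730 to 0.914 over 5 libraries), beside 0.854 and 0.795 in D2 clusters 1 and 5.

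The alpha2delta subunits, which carry channels to the membrane and bind gabapentin in the case of Cacna2d1 and Cacna2d2, were each centred on other cells. Cacna2d1 was highest in glutamatergic neurons, with libraries from 4.72 (median 5.88) to 6.47. It was 3.63 in D1 and 3.5 in D2 MSNs, and lowest in cholinergic (0.369) and Pvalb/Pthlh (0.442) interneurons. Its only overlap with the first class came from other GABAergic interneurons (2.36 ± 1.65), whose cluster 32 stood at 7.03 and clusters 24 and 26 at 0.886 and 0.238. Cacna2d2 was centred on interneurons. Cholinergic interneurons ran from 3.08 (median 3.45) to 4.06, above every library mean of every other class. A single cluster of the other GABAergic class, cluster 24, stood as high, at 3.69 (3.28 to 4.21 over 6 libraries), while clusters 26 and 32 of that class stood at 2.15 and 0.239. Other GABAergic (2.20 ± 0.655), Pvalb/Pthlh (1.57 ± 0.209) and Sst/Npy interneurons (0.990 ± 0.0787) followed, D1 MSNs had 0.485 and glutamatergic neurons 0.0810.

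Cacna2d3 was the alpha2delta gene of MSNs, with means of 20.7 ± 1.13 in D1 (18.6 lowest, 20.8 median, 22.1 highest) and 19.97 ± 0.740 in D2 MSNs (18.6, 20.1 and 20.8). Cholinergic interneurons (13.5 ± 2.44) and eccentric MSNs (10.9 ± 1.6) came next, with no library reaching the D1 or D2 range. Committed oligodendrocyte precursors, the lowest class, had 1.14. Lrtm1, a gene on the opposite strand inside Cacna2d3, stood at 20.1% to 21.5% of it in D1, D2 and cholinergic cells, so part of either value may belong to the other. Cacna2d4 was an oligodendrocyte gene: 0.370 ± 0.0988 (0.255, 0.365 and 0.506), 5.13-fold above D1 MSNs, the second class (0.0721 ± 0.0121). Oligodendrocyte cluster 17 held 0.782 and cluster 2 held 0.290, while the unnamed cluster 3 held 0.110. Outside oligodendrocytes, the unnamed cluster 19 held 0.204 (0.197 to 0.224 over 5 libraries). Glutamatergic cluster 43, with 52 nuclei, held 0.212 (0 to 0.429 over 4 libraries). Lrtm2, on its opposite strand, was at 13.3% of Cacna2d4 in oligodendrocytes and at 276% of it in D1 MSNs.

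Of the cytoplasmic beta subunits, which fold the pore and set its gating, Cacnb2 had the widest spread between MSN types. D2 MSNs averaged 24.0 ± 2.30 (21.0 lowest, 24.7 median, 27.2 highest) and D1 MSNs 13.02 ± 1.47 (10.9, 13.1 and 15.4), with no overlap. Microglia followed at 7.85 ± 0.875 (7.21, 7.57 and 9.59), level with eccentric MSNs (7.68 ± 1.68). The MSN marker sum was 24.5% of that in D1 MSNs in microglia, 24.7% in OPCs and 20.8% in oligodendrocytes. Cacnb2 was 3.01 ± 2.31 in OPCs, whose marker sum ran from 22.7 to 52.2 over libraries, and 1.26 ± 0.219 in oligodendrocytes. The part of stray MSN RNA in these Cacnb2 levels was not tested. Cholinergic interneurons (0.669) and committed oligodendrocyte precursors (0.599) had the lowest levels. The opposite-strand transcripts Gm10848 and Gm13269 stood at 17.8% to 19.7% of Cacnb2 in both MSN types.

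Cacnb1 was highest in D2 (0.355) and D1 MSNs (0.337), with glutamatergic neurons and eccentric MSNs overlapping. Cacnb3 was highest in cholinergic interneurons, with libraries from 0.567 (median 0.722) to 1.03. No library of another class exceeded 0.382, and glutamatergic neurons were second at 0.268. Cacnb4, the subunit mutated in the lethargic mouse, was level in D2 MSNs (4.89), glutamatergic neurons (4.83), D1 MSNs (4.81) and eccentric MSNs (4.68). In choroid plexus nuclei, which came from 3 libraries only and were not tested, its pooled mean was 7.59. The unnamed cluster 42, with 79 nuclei, held more Cacnb4 than any of these, at 11.3 (8.89 to 12.9 over 5 libraries).

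**Figure D2:**
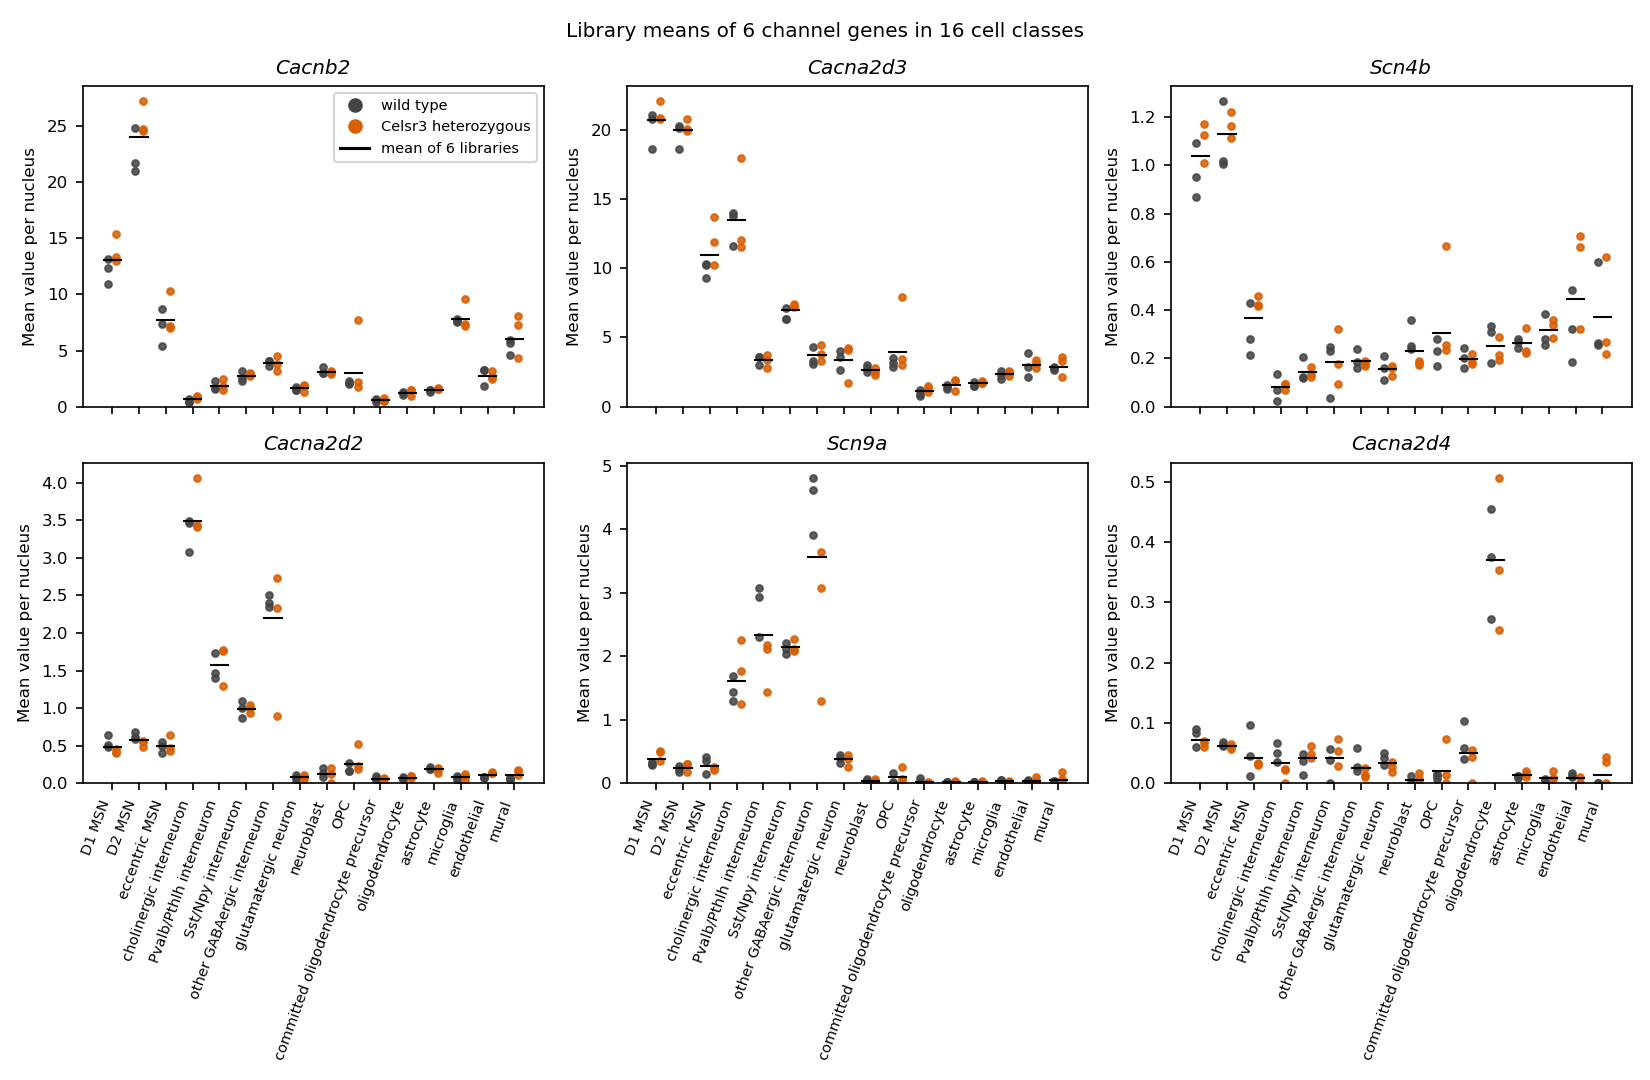
Mean value per nucleus (vertical axes, each from 0) of Cacnb2, Cacna2d3, Scn4b, Cacna2d2, Scn9a and Cacna2d4 in 16 cell classes (horizontal axes). Points are libraries, grey for wild type and orange for Celsr3 heterozygous, and the line is the mean of 6; Cacnb2 separates D2 from D1 MSNs in every library.

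Across the 16 classes, the 14 of 20 pore genes with a class mean of at least 0.1 were each set beside the auxiliary genes of its own channel family by Pearson's r of log2 class means, as a description over classes that share the same libraries. Among sodium channel genes, Scn2a ran closest with Scn2b (r = 0.926), as did Scn9a (0.894) and Scn1a (0.845). Scn3a ran with Scn3b (0.860). Among calcium channel genes, Cacna1b (0.852) and Cacna1g (0.595) were most like Cacnb3 and Cacna1c most like Cacnb2 (0.659). Cacnb1 was closest to the remaining 5 calcium channel pores compared: Cacna1i (0.885), Cacna1h (0.785), Cacna1d (0.772), Cacna1a (0.756) and Cacna1e (0.707). The next gene was close for Cacna1h (Cacna2d3, 0.778), Cacna1e (Cacnb2, 0.680) and Scn3a (Scn2b, 0.822), and farther for Cacna1i (Cacna2d3, 0.748). How much of r comes from the contrast of neurons with other cells was not tested. A shared class pattern does not show that subunits assemble. Several of the genes are neighbours in the genome. Scn3a, Scn2a, Scn1a, Scn9a and Scn7a lie within 1327.8 kb of chromosome 2, and Scn2b lies 8.324 kb from Scn4b on chromosome 9. Scn4b was highest in MSNs. Scn2b had its highest mean in other GABAergic interneurons, with its first and second classes not separated by library.

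Class differences were tested in 6 pairs with limma on log2(mean + 0.01), each library contributing both classes, with Benjamini-Hochberg adjustment over all genes tested in the pair and a threshold of 0.05. Library and genotype are balanced within these pairs. Every adjusted p and log2 difference of class pairs comes from these fits. A gene entered a pair by passing the filter on low values in either class. The shares of all genes given for each pair use this rule. No share of all genes was computed for those passing in both classes, so those counts have no background. Because rare classes have low sums, 14 of 25 channel genes entered the cholinergic pair through D1 MSNs alone, 6 of 21 the interneuron pair through Pvalb/Pthlh cells alone and 5 of 22 the OPC pair through oligodendrocytes alone.

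D1 and D2 MSNs shared most channel genes at close levels but differed clearly in Cacnb2, which was 1.84-fold higher in D2. Per library, in the order of replicates 1 to 3, Cacnb2 in D1 MSNs measured 10.9, 12.3 and 13.2 (wild type), then 15.4, 12.98 and 13.3 (heterozygous). In D2 MSNs of the same libraries the values were 21.7, 21.0 and 24.9, and 27.2, 24.8 and 24.6. D2 was higher in 6 of 6 libraries, and the log2 difference, D1 minus D2, was -0.88 ± 0.024 (SE; adjusted p = 4.24e-16). Also lower in D1 MSNs were the T-type pore Cacna1i (-0.27 ± 0.033), Cacna2d2 (-0.26 ± 0.037), Cacna1e (-0.24 ± 0.021), Cacna1c (-0.23), Scn3a (-0.21), Scn1a (-0.14), Scn4b (-0.13) and Scn8a (-0.07). Scn1a and Scn4b were lower in 5 of 6 libraries and the others in 6 of 6. These are differences of whole classes, whose clusters also differed. Cacnb2 was 14.8 and 8.61 in D1 clusters 0 and 7, and 25.1 and 21.8 in D2 clusters 1 and 5. Cacna1i was 0.755 and 0.524 against 0.854 and 0.795. The order of Cacna1e, Cacna2d2 and Scn4b depended on the clusters compared. Cacna2d2 was 0.442 and 0.567 against 0.639 and 0.439, and Scn4b 1.17 and 0.680 against 1.20 and 0.943.

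Cacna1i was 0.651, 0.639 and 0.617 in D1 MSNs of the wild-type libraries and 0.764, 0.717 and 0.749 in those of the heterozygous ones. Its D2 values were 0.764, 0.754 and 0.827, and 0.851, 0.905 and 0.906, each above the D1 value of the same library. Cacna2d2 was 0.643, 0.483 and 0.512, and 0.411, 0.407 and 0.452 in D1 MSNs, against 0.688, 0.587 and 0.611, and 0.482, 0.543 and 0.558 in D2. Cacna1e, in the same order, was 5.31, 5.04 and 5.09, and 5.45, 5.85 and 4.87 in D1 and 6.30, 6.0 and 5.98, and 6.33, 6.62 and 6.07 in D2. For all 3 genes the ranges of the classes come close or overlap, and the difference lies within libraries.

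Scn9a, Cacnb3 and Cacna1b were higher in D1 MSNs. Scn9a was 0.294, 0.339 and 0.300 in wild-type and 0.493, 0.504 and 0.351 in heterozygous D1 MSNs, and 0.273, 0.218 and 0.178, and 0.310, 0.309 and 0.173 in D2, a ratio of 1.56 (log2 0.63 ± 0.071, adjusted p = 5.94e-07). D1 was higher in 6 of 6 libraries. Cacnb3 was 0.200, 0.153 and 0.196, and 0.213, 0.185 and 0.221 in D1, against 0.178, 0.123 and 0.143, and 0.157, 0.131 and 0.176 in D2 (log2 0.35 ± 0.053). Cacna1b was 1.16, 1.06 and 1.09, and 1.26, 1.33 and 1.19 in D1, against 0.960, 0.843 and 0.872, and 1.03, 1.06 and 1.02 in D2 (log2 0.29 ± 0.026). These 3 genes were higher in D1 in every library.

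In all, 6 of the 25 channel genes tested were called higher in D1 and 9 lower, where 41.1% of all 13478 genes were called higher and 8.25% lower (49.3% either way). The median gene was 0.11 higher in D1 in the values as deposited. Scaling by size factors moved that median by -0.12 to -0.01 and the share of higher genes among all called from 83.3% to 39.6%. Scaled, 3 channel genes were called higher and 19 lower, where 37.4% of all genes were called either way. Of the channel genes, 12 were called in the same direction both ways: Scn9a, Cacnb3 and Cacna1b higher, and the 9 lower genes above. Cacna1d, Scn2a and Cacna2d3, called 0.07, 0.06 and 0.05 higher as deposited, were called lower once scaled (-0.07, -0.08 and -0.08), so no direction is given for them. Cacna1d was 2.42, 2.42 and 2.24, and 2.47, 2.32 and 2.25 in D1 and 2.38, 2.39 and 2.18, and 2.36, 2.12 and 2.07 in D2. Relative to the median gene, Cacnb2 was lower in D1 by -1.0 as deposited and -1.01 scaled, and Scn9a higher by 0.51 either way.

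**Figure D3:**
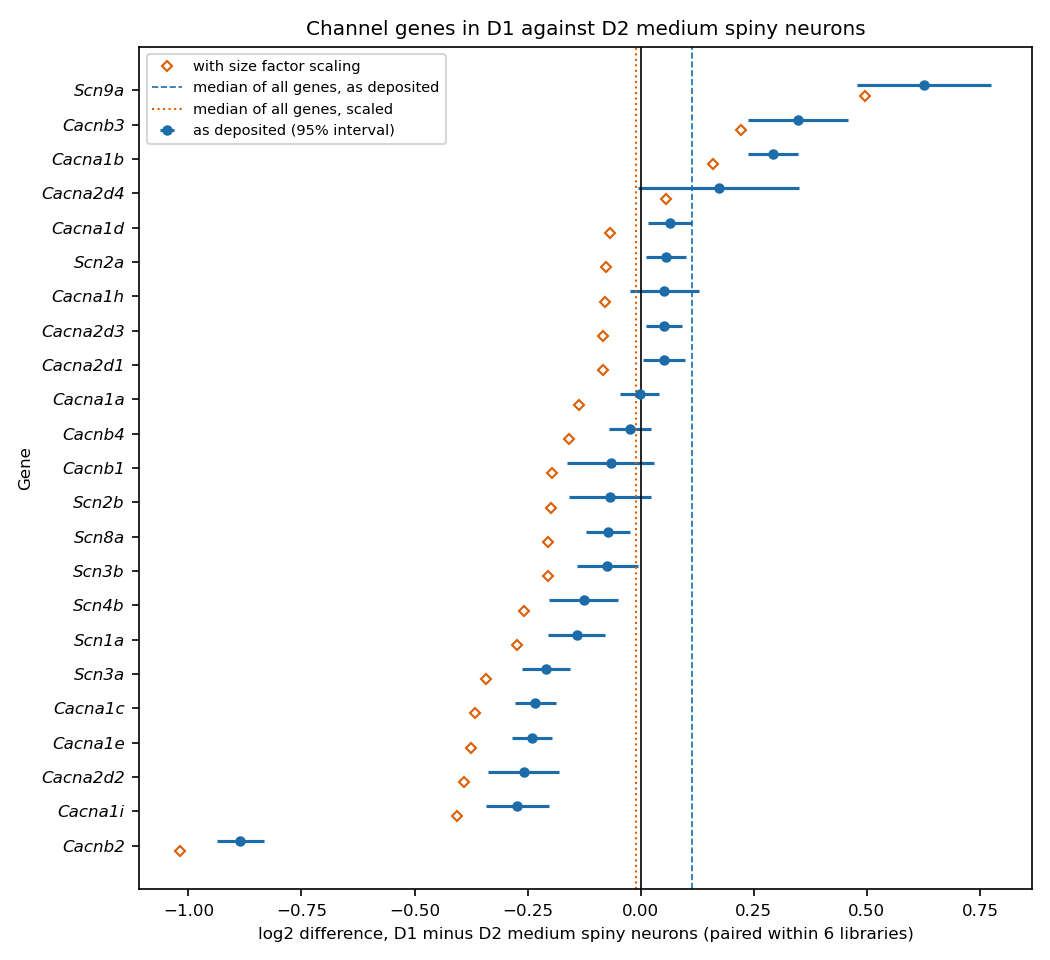
Log2 difference of 23 tested channel genes (vertical axis) between D1 and D2 MSNs (horizontal axis, D1 minus D2) over 6 libraries. Filled points with 95% intervals are values as deposited, open diamonds are size-factor-scaled values, and the dashed and dotted lines mark the median of all genes as deposited and scaled; Cacnb2 lies far to the left and Scn9a to the right under both.

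Eccentric MSNs had less of several MSN channel genes than D1 MSNs. Scn4b was 2.81-fold lower (log2 -1.51 ± 0.12, adjusted p = 5.71e-08), and Cacna1h (-1.28 ± 0.13), Cacna2d3 (-0.93) and Cacnb2 (-0.78) were lower too, each in 6 of 6 libraries. Cacna1d (0.30) and Cacna1c (0.16) were called higher. Cacna1g averaged 0.218 in eccentric and 0.0187 in D1 MSNs; it passed the filter through eccentric MSNs alone, so this difference is given with no test. Of 26 channel genes tested, 4 were called higher and 11 lower, against 13.1% and 35.7% of all genes; of the 24 that passed the filter in both classes, 3 were higher and 10 lower. The median gene was -0.19 and, scaled, -0.06. Scaled, 7 channel genes were called higher and 8 lower, where 42.4% of all genes were called either way. The direction was the same both ways for 12 calls. The MSN marker sum was 68.3% of that of D1 MSNs in the eccentric class and 130% in D2 MSNs. How this sum relates to the channel gene differences was not tested.

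Pvalb/Pthlh and Sst/Npy interneurons, fast-spiking and low-threshold-spiking types, differed in pores as well as in auxiliary genes. Pvalb/Pthlh interneurons had 6.53-fold less Cacna1e (log2 -2.72 ± 0.11, adjusted p = 2.80e-11), 2.69-fold less Cacna2d1, and less Scn3b (-1.36) and Cacna2d3 (-1.06). They had more Cacnb4 (0.88 ± 0.092), Cacna2d2 (0.65), Scn1a (0.56), Cacna1a (0.42) and Scn8a (0.35). Each of these differences had the same sign in 6 of 6 libraries. Of 21 channel genes tested, 6 were called higher and 10 lower, against 17.3% and 10.8% of all genes. The same 16 were called after scaling, where 27.7% of all genes were called either way. Of the 15 that passed in both classes, 5 were higher and 8 lower. Pvalb, Pthlh, Sst and Npy were among the genes that named these classes, and no channel gene was.

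Cholinergic interneurons carried another set than D1 MSNs. Cacna2d2 was 7.2-fold higher (log2 2.84 ± 0.12, adjusted p = 1.81e-09), Scn9a 4.26-fold (2.06 ± 0.14), Cacnb3 3.91-fold (1.89 ± 0.14) and Cacna1b (1.08) and Cacna1d (0.60) less so. Cacna1c (-1.52 ± 0.11, adjusted p = 2.68e-07), Scn8a (-0.95), Scn3a (-0.87), Cacnb4 (-0.87) and Cacna2d3 (-0.63) were lower, and each of these differences held in 6 of 6 libraries. Some genes high in D1 MSNs entered through that class alone and are given as levels with no test: Cacnb2 was 0.669 against 13.02, Cacna2d1 0.369 against 3.63, Cacna1e 0.648 against 5.27, Scn4b 0.0804 against 1.04 and Cacna1i 0.0813 against 0.689. Of the 25 channel genes, 5 were called higher and 15 lower, against 24.1% and 19.8% of all genes under the same filter. These counts include the 14 that entered through D1 MSNs alone. Of the 11 that passed the filter in both classes, 4 were higher and 5 lower. After scaling, those 9 genes kept their call and direction, where 44% of all genes were called either way. Scaling moved the median gene from 0.08 to -0.19 and the share higher among all called genes from 54.9% to 34.3%.

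Glutamatergic neurons, compared with D1 MSNs, had more Cacna2d1 (log2 0.67 ± 0.066, adjusted p = 8.75e-06), Cacna1d (0.48), Cacna1b (0.46), Cacnb3 (0.44), Cacna1a (0.43) and Scn8a (0.32), each in 6 of 6 libraries. Scaled, Scn8a was no longer called (0.11, adjusted p = 0.0823, limma). They had 8.01-fold less Cacnb2, 6.64-fold less Scn4b, 6.15-fold less Cacna2d3 and 5.98-fold less Cacna2d2. Of 28 channel genes tested, 10 were called higher and 13 lower, against 41.5% and 22.1% of all genes. Among the 10 were Cacna1g (0.368 against 0.0187), Cacna1f (0.0847 against 0.0125) and Scn7a (0.0556 against 0.00486), which passed the filter through glutamatergic neurons alone and are given with no test. Of the 24 that passed in both classes, 7 were higher and 12 lower. Scaling moved the median gene from 0.13 to -0.06 and the share higher among all called genes from 65.2% to 42.7%. Then 9 channel genes were called higher and 14 lower, with 22 the same in both, where 63% of all genes were called. The class pools 5 clusters in which Cacna1g ran from 0.0871 to 0.777, and libraries gave it 196 to 1501 nuclei.

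OPCs and oligodendrocytes were compared within the oligodendrocyte lineage, and most channel genes called were higher in OPCs. OPCs had 6.52-fold more Scn3a than oligodendrocytes (log2 2.62 ± 0.13, adjusted p = 2.55e-09), and more Cacna1d (1.86), Cacna1a (1.77), Cacna2d2 (1.58) and Cacna1c (1.41). They had less Cacnb4 (-0.42) and Cacna2d4 (0.0205 against 0.370), the latter entering through oligodendrocytes alone and given with no test. Of 22 channel genes, 15 were called higher and 2 lower, against 25.1% and 17.6% of all genes; of the 17 that passed in both classes, 14 were higher and 1 lower. Scaling moved the median gene from 0.07 to -0.18 and the share higher among all called genes from 58.7% to 38.5%. Then 12 channel genes were called higher and 2 lower, where 45.8% of all genes were called either way. The MSN marker sum in OPCs ran from 22.7 to 52.2 summed value per nucleus over libraries and averaged 24.7% of the D1 level, against 20.8% in oligodendrocytes.

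Before the genotype comparison, Celsr3 itself was read as a check of the labels. D1 MSNs of the wild-type libraries gave 0.146, 0.168 and 0.178, and those of the heterozygous libraries 0.081, 0.0974 and 0.0928. The groups did not overlap in D1 MSNs, D2 MSNs, glutamatergic neurons or all nuclei, and Celsr3 fell short of adjusted significance in each (log2 -0.79, -0.59, -0.80 and -0.46; adjusted p = 0.116, 0.350, 0.577 and 0.458, limma). What the allele changes is not given, so a 3′ tag need not report it. Cacna2d2 lies on the same chromosome 9, 1296.98 kb from Celsr3.

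No channel gene was called between genotypes by limma in all nuclei or in any of the 16 classes. In all nuclei 26 channel genes were tested, 1 had an unadjusted p under 0.05 and 0 had groups that did not overlap, where 0% of 14398 genes were called, 9.95% had an unadjusted p under 0.05 and 19.3% did not overlap. In D1 MSNs 25 were tested, 5 had an unadjusted p under 0.05 (4 higher and 1 lower in heterozygous libraries) and 5 did not overlap. Of 13423 genes 0.0149% were called, 10.5% had such a p (6.16% higher, 4.37% lower) and 17.2% did not overlap. In D2 MSNs 25 were tested, 5 had an unadjusted p under 0.05 (3 higher, 2 lower) and 4 did not overlap. Of 12769 genes 0.0627% were called, 8.94% had such a p (4.35% higher, 4.58% lower) and 14.2% did not overlap. The channel genes' median difference was 0.05 in D1 and 0.04 in D2 MSNs, close to the medians over all genes, 0.06 and 0.03. Scaling moved the share higher among genes of unadjusted p under 0.05 from 58.5% to 34.9% in D1, from 48.7% to 38.6% in D2 and from 62.9% to 30% in all nuclei. Over the 16 classes, 20 of 301 pairs of class and channel gene had an unadjusted p under 0.05 (13 higher, 7 lower), against 6.41% of all genes summed over the classes (2.97% higher, 3.44% lower; 0.0101% called). Of 26 channel genes tested in 2 or more classes, 3 had groups that did not overlap in opposite directions in different classes, against 5.1% of 13600 genes. A gene tested in more classes has more chances of this, and the number of classes was not matched.

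**Figure D4:**
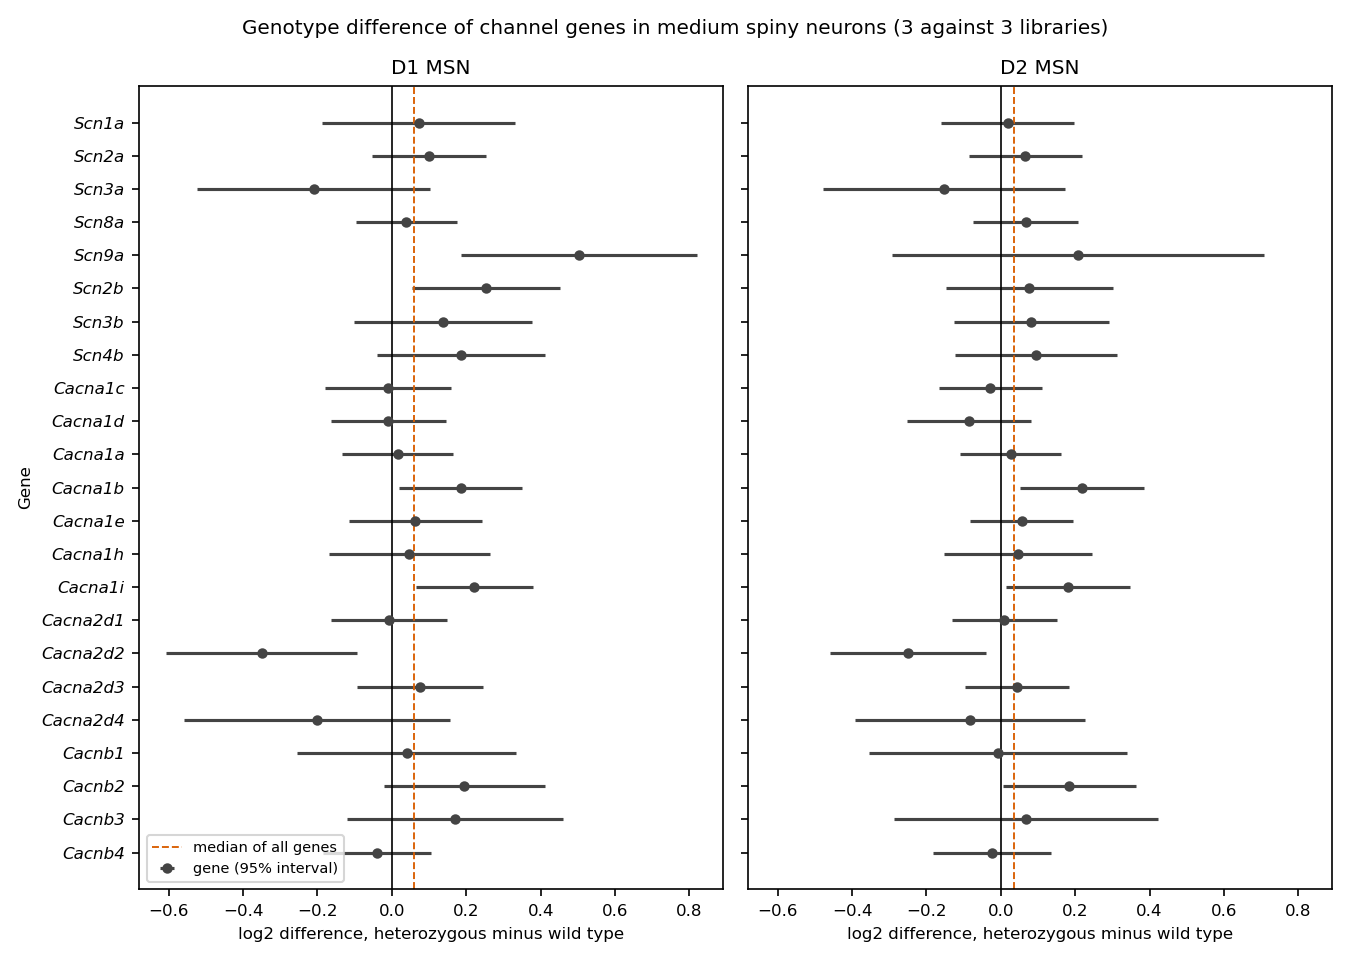
Log2 difference, heterozygous minus wild type (horizontal axes), of 23 channel genes (vertical axis) in D1 MSNs (left) and D2 MSNs (right), with 95% intervals over 3 against 3 libraries. The dashed line is the median of all genes tested; no gene passed the adjustment over all genes.

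In D1 MSNs the smallest p among channel genes belonged to Scn9a, whose values are given above. The lowest heterozygous library, 0.351, exceeded the highest wild-type one, 0.339 (log2 0.50 ± 0.14, 95% interval 0.19 to 0.82, adjusted p = 0.307). Cacna1i was likewise higher in each heterozygous library (0.22 ± 0.070, adjusted p = 0.358), as were Scn2b (0.25) and Cacna1b (0.19). Cacna2d2 was lower in each (-0.35 ± 0.11, adjusted p = 0.370). The highest library was wild-type replicate 1 at 0.643, and leaving it out gave -0.23.

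In D2 MSNs, from the same 6 libraries, Cacna1b was 0.960, 0.843 and 0.872 in wild-type and 1.03, 1.06 and 1.02 in heterozygous libraries (0.22 ± 0.075, adjusted p = 0.435). Cacna2d2 was lower in each heterozygous library (-0.25 ± 0.093, adjusted p = 0.483), and -0.16 with clusters weighted equally, when the groups overlapped. Cacna1i differed by 0.18, and by 0.07 with overlapping groups when clusters were weighted equally. Cacnb2 differed by 0.18 with overlapping groups, and by 0.11 with array weights. The D1 and D2 effects were compared directly in 1 model: 0 of 25 channel genes were called, against 0% of 12714 genes, and 2 had an unadjusted p under 0.05 (Scn2b among them) against 5.15% of all genes. The smallest adjusted p was 0.923.

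In all nuclei, where the makeup of the library enters every value, Cacna1b had the smallest p: 0.696, 0.672 and 0.817 in wild-type and 0.966, 0.988 and 0.800 in heterozygous libraries (0.33 ± 0.11, adjusted p = 0.467). With every cluster weighted equally the difference was 0.09. Scn2a was 2.05, 1.95 and 1.97 against 2.51, 2.27 and 2.02 (0.18 ± 0.092), and 0.11 without heterozygous replicate 1. Cacna1i was 0.284, 0.381 and 0.350 against 0.434, 0.395 and 0.347 (0.21 ± 0.13), 0.12 with clusters weighted equally, 0.09 without wild-type replicate 1 and 0.14 without heterozygous replicate 1. In each of these 3 genes the groups overlapped.

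In glutamatergic neurons 27 channel genes were tested and 0 had an unadjusted p under 0.05, against 5.39% of all genes (0.00802% called). Cacnb1 and Cacna1f were among the 3 channel genes of smallest p. Cacnb1 was 0.274, 0.342 and 0.293 in wild-type and 0.218, 0.296 and 0.199 in heterozygous libraries (-0.35 ± 0.17). Cacna1f was 0.0779, 0.112 and 0.106 against 0.0473, 0.0704 and 0.0946 (-0.46 ± 0.26). Both overlapped between groups, with adjusted p of 0.932 and 0.939. The Cacna1f difference was -0.22 with a pseudocount of 0.1, -0.23 without heterozygous replicate 1 and -0.30 with clusters weighted equally, and cluster 11 made up 0.965% to 54.5% of the class by library.

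**Figure D5:**
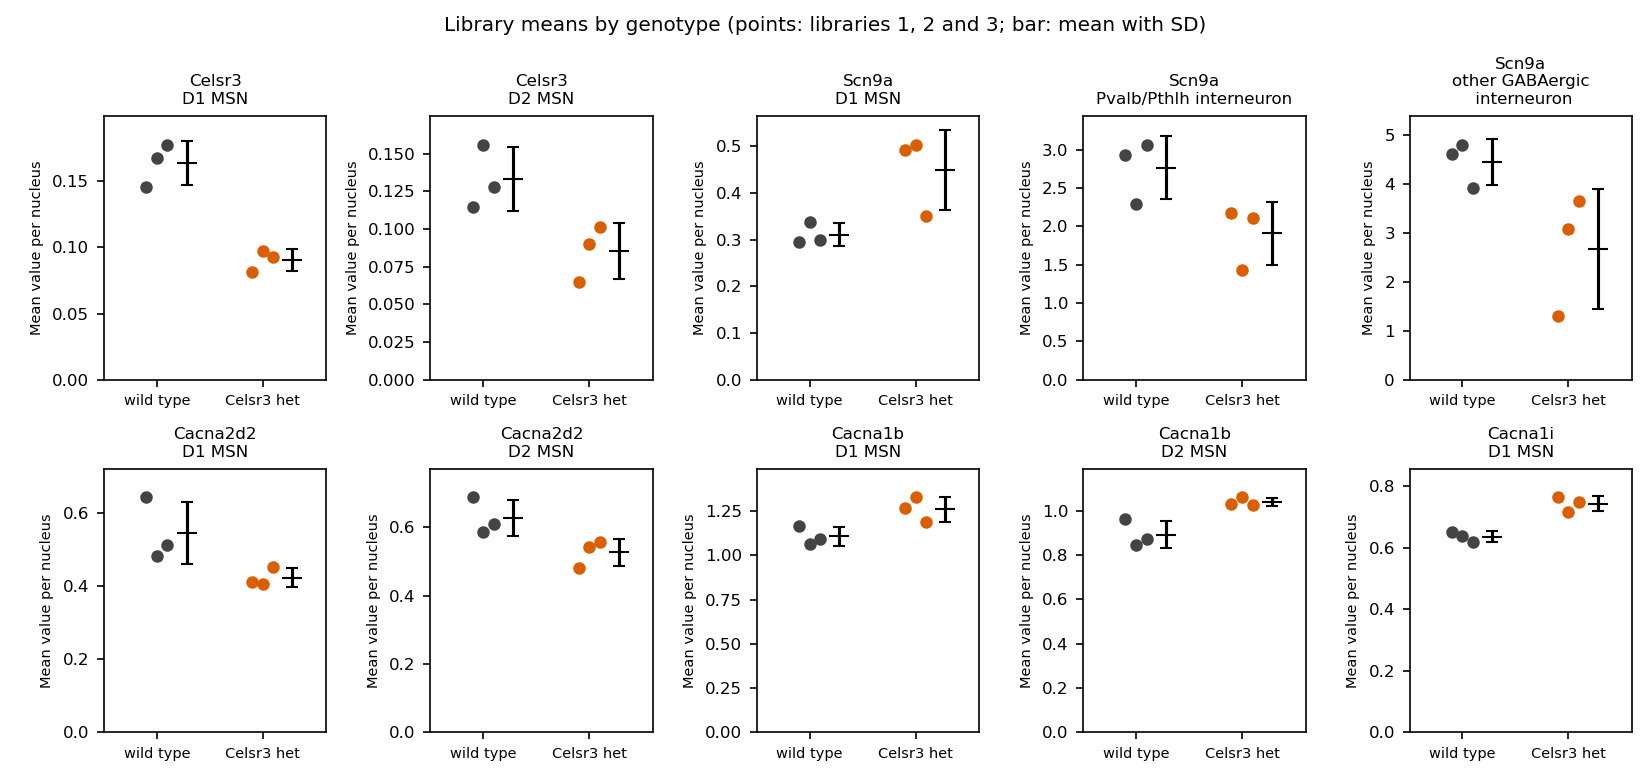
Mean value per nucleus (vertical axes from 0) in wild-type (grey) and Celsr3 heterozygous (orange) libraries for Celsr3, Scn9a, Cacna2d2, Cacna1b and Cacna1i in the classes named above each panel. Points are libraries 1, 2 and 3 in order and the bar is the mean with SD; Scn9a is higher in heterozygous D1 MSNs and lower in heterozygous Pvalb/Pthlh and other GABAergic interneurons, none of which passed the adjustment.

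Other genes of sodium and calcium channel complexes were examined from a list of 35 (34 in the table): scaffolds of the axon initial segment, FGF homologous factors, the sodium leak channel complex, active zone tethers, RGK GTPases, calcium sensors and adaptors. By limma 0 were called in all nuclei (29 tested), D1 (28) or D2 MSNs (29), and 3, 1 and 3 had an unadjusted p under 0.05, against 9.95%, 10.5% and 8.94% of all genes. Groups did not overlap for 7, 5 and 10 of them, against 19.3%, 17.2% and 14.2% of all genes. The 2 partners of smallest p in each population were as follows. Stac, an L-type channel adaptor, had values of 0.0482, 0.0541 and 0.0652 in wild-type and 0.0659, 0.114 and 0.140 in heterozygous libraries in all nuclei (log2 0.78 ± 0.25, adjusted p = 0.461). Stac was among the leading genes of the unnamed cluster 6, which made up 4.19%, 1.28% and 3.29% of the wild-type and 1.14%, 12.24% and 7.16% of the heterozygous libraries; its part in the difference was not tested. Unc80, of the sodium leak channel, was 0.24 ± 0.083 higher in all nuclei. In D1 MSNs Ncs1, a calcium sensor, was 0.24 ± 0.088 and Fgf13, a sodium channel binding factor, 0.33 ± 0.15, the latter with an unadjusted limma p of 0.0591. In D2 MSNs Fgf13 was 0.46 ± 0.14 and Fam155a, a leak channel subunit, -0.15 ± 0.059. None of these passed the adjustment (adjusted p of 0.387 to 0.495).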

How the data were processed

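Nuclear RNA of 3 wild-type and 3 Celsr3 heterozygous striata was profiled, 1 library per biological replicate. Per the submitters' processing notes, Cell Ranger and Seurat 4.1 were used with mm10 (GRCm38). The values the authors deposited, 24841 genes by 48834 nuclei, were treated as a score: whole numbers with totals per nucleus of 4523 to 10638 and a coefficient of variation of 10.7%. In 10.0% of nuclei, 10 or more of 13152 low genes stood at 2 or above and none at 1, a pattern of depth-corrected rather than raw UMI counts. The correction is not given in the sources used here, and no count test or counting interval was used.

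The channel genes, other lists and tests were chosen with earlier results of these data known. Clusters came from 2000 variable genes without the channel genes, 30 principal components, 15 neighbours and Leiden clustering at resolution 1 (Python 3.11.15 with scikit-learn 1.9.0, scanpy 1.11.5 and igraph 0.11.9). Of 54 clusters, 35 were named from 185 marker entries, 10 stayed unnamed (8590 nuclei) and 9 were removed as doublets. Naming and doublet limits were set after the clusters were seen. Scrublet's automatic threshold called 0.672% to 1.38% of a library; nuclei with a score above 0.25 and clusters with over 40% of such nuclei were removed, 850 in all (1.74%).

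Each gene's mean per nucleus, library and class was tested as log2(mean + 0.01) in R 4.3.3 by limma 3.58.1, with empirical Bayes and a mean-variance trend, for genes with a mean of 0.02 or more whose summed value per library averaged 30 or more. The scale understates changes of low genes. P values were adjusted with Benjamini-Hochberg over all genes of a fit. Class pairs had the library as a fixed block, and the difference of genotype effects had it as a random one. The fit was checked on simulated data. Gene positions are from GENCODE on GRCm38.

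Per-library values are given for channel genes called between genotypes or else the 3 of smallest p in all nuclei, D1 and D2 MSNs and glutamatergic neurons, and for the 4 largest called D1 to D2 differences each way; for partners, the 2 of smallest p. The results of 2 channel genes are not reported here, though all counts include them. Nothing in the labels says which animals, litters or preparation days the libraries came from.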

Additional observations from a re-analysis of the deposited data

Results flagged for a closer look

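For 3 of the 26 channel genes tested in 2 or more classes, every heterozygous library lay above every wild-type library in 1 class and below it in another, as did 5.1% of 13600 genes. That share was not matched for the number of classes in which a gene was tested. The difference of the effects was then tested in 1 limma model per pair of classes. Scn9a was higher in heterozygous D1 MSNs (log2 0.50) and lower in heterozygous Pvalb/Pthlh interneurons, where it was 2.93, 2.30 and 3.07 in wild-type and 2.18, 1.43 and 2.11 in heterozygous libraries (-0.55). The effects differed by 1.05 (unadjusted p = 0.000674, adjusted p = 0.791 over 7002 genes). With the clusters of the class weighted equally the interneuron difference was -0.54 and the groups overlapped. In other GABAergic interneurons Scn9a was 4.62, 4.81 and 3.91 against 1.30, 3.07 and 3.64 (-0.86), a difference of 1.36 from D1 MSNs (adjusted p = 0.926). It was -0.46 with overlapping groups when clusters were weighted equally and -0.40 without heterozygous replicate 1, which had 74% of its nuclei of this class in cluster 32, where Scn9a was low.

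Cacna1b was lower in heterozygous Sst/Npy interneurons (2.00, 2.15 and 2.40 against 1.78, 1.93 and 1.79; log2 -0.25) and higher in 4 other classes. The difference from Sst/Npy interneurons was 0.43 for D1 MSNs, 0.47 for D2 MSNs, 0.38 for cholinergic interneurons and 0.85 for microglia, with adjusted p of 0.905, 0.818, 0.837 and 0.851. In microglia the difference was 0.60, and 0.18 with overlapping groups once clusters were weighted equally. Scn8a was higher in heterozygous cholinergic interneurons (1.03, 0.825 and 0.793 against 1.41, 1.07 and 1.18) and lower in heterozygous committed oligodendrocyte precursors (1.70, 1.33 and 1.30 against 1.04, 1.26 and 1.13), a difference of 0.79 (adjusted p = 0.863). These pairs of classes were chosen after the values were seen, and none passed the adjustment over all genes tested.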

How the results depend on the processing

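The count of channel genes called in genotype fits stayed at 0 in 256 combinations of fit and alternative and moved to 1 in 3. These fits are those of each population and the fit of D1 against D2 genotype effects, which has 12 alternatives. Without wild-type replicate 1, Scn3a was called in D1 (log2 -0.39, adjusted p = 0.0437, limma) and D2 MSNs (-0.35, adjusted p = 0.0335), giving 1 channel gene in each, among 131 (0.976%) and 241 (1.89%) genes called. Its D1 values were 1.24, 1.88 and 1.72 in wild-type and 1.32, 1.35 and 1.45 in heterozygous libraries, with replicate 1 the lowest. With array weights Cacna1b was called in D2 MSNs (0.27, adjusted p = 0.0287), 1 of 855 genes (6.70%). Leaving out 1 library at a time gave 0 to 1 channel genes in D1 and D2 MSNs and 0 elsewhere. All-gene calls ranged from 1 to 131 in D1 (2 as reported) and from 0 to 855 in D2 (8 as reported).

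Celsr3 passed the threshold in D1 MSNs on leaving out wild-type replicate 1 (-0.87) or using array weights (-0.82), and in D2 MSNs with array weights (-0.56). With a pseudocount of 0.1 its difference shrank to -0.47 in D1 MSNs, -0.33 in D2 MSNs and -0.23 in all nuclei. In class pairs the counts stayed within 1.5 times in all 72 alternatives, from 12 to 22 in D1 against D2. Cacna1d turned from 0.065 to -0.068 (log2) under size factors and fell short without heterozygous replicates 2 or 3 (adjusted p = 0.102 and 0.0881). The cause of these shifts was not tested.

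Same-numbered libraries correlated at -0.071 to 0.146 in all nuclei, 0.0114 to 0.273 in D1 and 0.0525 to 0.281 in D2 MSNs. Some libraries were closest to their own number and others were not. With so few libraries these correlations cannot decide whether the numbers pair the samples. A replicate block called 0 channel genes in every population, with 2 genes of all called in D1 and 26 in D2 MSNs. Equal cluster weights within classes and the tests between classes were chosen after seeing the data. With 3 libraries per group and an unknown depth, small differences in rare classes cannot be seen: cholinergic interneurons had 29 to 44 nuclei per library, and OPCs 27 in heterozygous replicate 1.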

Other observations

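Unnamed clusters, which entered no class comparison, held some of the highest channel levels. Cluster 19, led by Trpm6, Lhx9, Lef1 and Shox2 (702 kept nuclei, 0 in heterozygous replicate 1), had a mean Cacna1c of 14.6 (11.3 to 19.3 over 5 libraries), above the mural mean of 10.2, and a mean Cacna1g of 1.82 (1.65 to 2.01), against 0.368 in glutamatergic neurons, the highest named class. Cluster 12, with Pmch, Atp1b1, Oxt and Ttr among its 10 leading genes (1179 kept nuclei, a median of 1721 genes per nucleus), had the highest Scn2a (4.23) and Scn2b (0.803) of the 42 clusters that were not removed and had at least 50 nuclei.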
